A study of Mus musculus with 16 samples.

Results

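The effect of adding an agonist anti-CD40 antibody (Ab) to gemcitabine (GEM) was read in tumors of the murine pancreatic line PDA30364. The comparison was defined by the treatment labels and took in 8 of the 16 arrays of the series, 4 from tumors given GEM with the anti-mouse CD40 Ab (clone 3-23, mouse IgG1; GEM/anti-CD40) and 4 from tumors given GEM with a control mouse IgG (GEM). The other 8 arrays, 4 from tumors given vehicle with the Ab (anti-CD40) and 4 from tumors given vehicle with control IgG (control), were used only to set the Ab change with GEM beside that without it. All mice were C57BL/6-Ly5.1 animals of 6 to 12 weeks with tumor cells in Matrigel under the skin of the flank, so every group shared 1 cell line, which arose in a genetically engineered mouse model, and none of the tumors grew in the pancreas. GEM was given at 120 mg per kg on days 1, 5 and 12 of treatment with Ab injections on days 3, 4, 6 and 14 of it. Tumors were taken on day 22 or 23 after tumor inoculation, a count that starts before treatment, which in general began 1 week after implant. Whole tumor pieces were profiled from 200 ng of RNA on a mouse 3′ expression array, and all probe sets other than the array's own controls, 45037 in all, were tested, of which those with a single gene symbol stood for 18193 named genes. Levels are log2 units, in which a difference of 1 is a doubling. The titles of GEM replicates 3 and 4 carried the same animal number, and they were counted as separate samples because the labels list them so.

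CD40 is a receptor of the TNF receptor family on dendritic cells, macrophages and B cells. When its ligand on helper T cells or an agonist Ab engages it, these cells raise their antigen presentation and costimulation and make cytokines that drive T cells, and it signals inside the cell through TRAF adaptors to both arms of NF-kB. Activated T cells and NK cells make interferon gamma, which acts through JAK kinases on tumor cells, macrophages and stromal cells alike and switches on guanylate-binding proteins, MHC molecules and the chemokines that draw in further T cells. GEM is a nucleoside analog that blocks DNA synthesis and is a standard drug in pancreatic cancer.

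No probe set passed the test. By limma's empirical Bayes test 0 of 45037 probe sets were called higher in GEM/anti-CD40 tumors (0%) and 0 were called lower (0%) at an adjusted p under 0.05, and the smallest adjusted p was 0.197. At an unadjusted p under 0.05, 2286 probe sets (5.08%) were higher and 2925 (6.49%) lower, and this split became 1861 higher and 3913 lower when each array was centred on its 75th percentile. Among named genes, 672 (3.69%) had all 4 GEM/anti-CD40 arrays above all 4 GEM arrays and 629 (3.46%) had all 4 below, and these 2 shares are the background against which the counts of non-overlapping genes are set throughout. The differences were lopsided in size: 287 genes had a log2 change of 1 or more and 16 a change of -1 or less, with a median over all named genes of -0.02. Groups did not overlap for 169 of the 287 and for 5 of the 16, so many large changes rested on part of the arrays. The text therefore gives values, and higher or lower is said of means or of arrays that did not overlap, never of a called change. The adjusted p of the genes named lay between 0.197 and 0.74.

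Several arrays stood apart from others of their group. Of the 287 genes with a change of 1 or more, 223 (77.7%) were highest in GEM/anti-CD40 replicate 1 and 212 (73.9%) were lowest in replicate 3, against 21.0% and 26.2% of all named genes. The number of genes apart upward was 1303 (7.16%) without replicate 3 and 1035 (5.69%) without replicate 4. GEM replicate 2 had the highest mean of the GEM arrays for the interferon lists. GEM/anti-CD40 replicate 4 held skeletal muscle RNA, with a mean level of 11.73 over 19 muscle genes against 5.22 to 6.01 in the other GEM/anti-CD40 arrays and 5.00 to 7.60 in the GEM arrays, where GEM replicate 4 was highest. Of the 287 genes, 56 (19.5%) were highest in that GEM/anti-CD40 array, against 21.0% of all named genes. GEM replicates 3 and 4 correlated at 0.995 over all probe sets, within the 0.994 to 0.997 of the 6 pairs of GEM arrays. The 6 pairs of GEM/anti-CD40 arrays correlated at 0.987 to 0.996, and 59.4% of named genes had the larger SD in that group.

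The genes furthest above GEM were an acute-phase protein and interferon-inducible genes. Saa3, serum amyloid A3, which macrophages and stromal cells make in inflammation, measured 13.04, 11.63, 9.10 and 10.68 in the GEM/anti-CD40 arrays, against 6.24, 6.47, 7.15 and 6.32 in the GEM arrays. Its groups were well apart, and the means differed by 4.57 ± 0.69 log2 units (SE), a 23.7-fold difference (n = 4 each). Ubd, the ubiquitin-like modifier FAT10, measured 11.10, 10.10, 8.05 and 9.34 in GEM/anti-CD40 tumors, against 4.60, 7.27, 5.41 and 4.91 in GEM tumors, a change of 4.10 ± 0.71. The lowest treated tumor, replicate 3, exceeded the highest GEM tumor, replicate 2, by less than the range within either group. Ido1, the tryptophan-degrading enzyme that interferon gamma induces, had 10.57, 10.00, 9.0 and 9.32 in GEM/anti-CD40 tumors and 5.96, 8.37, 6.42 and 6.01 in GEM tumors (3.03 ± 0.55), in the same order within each group.

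**Figure D1:**
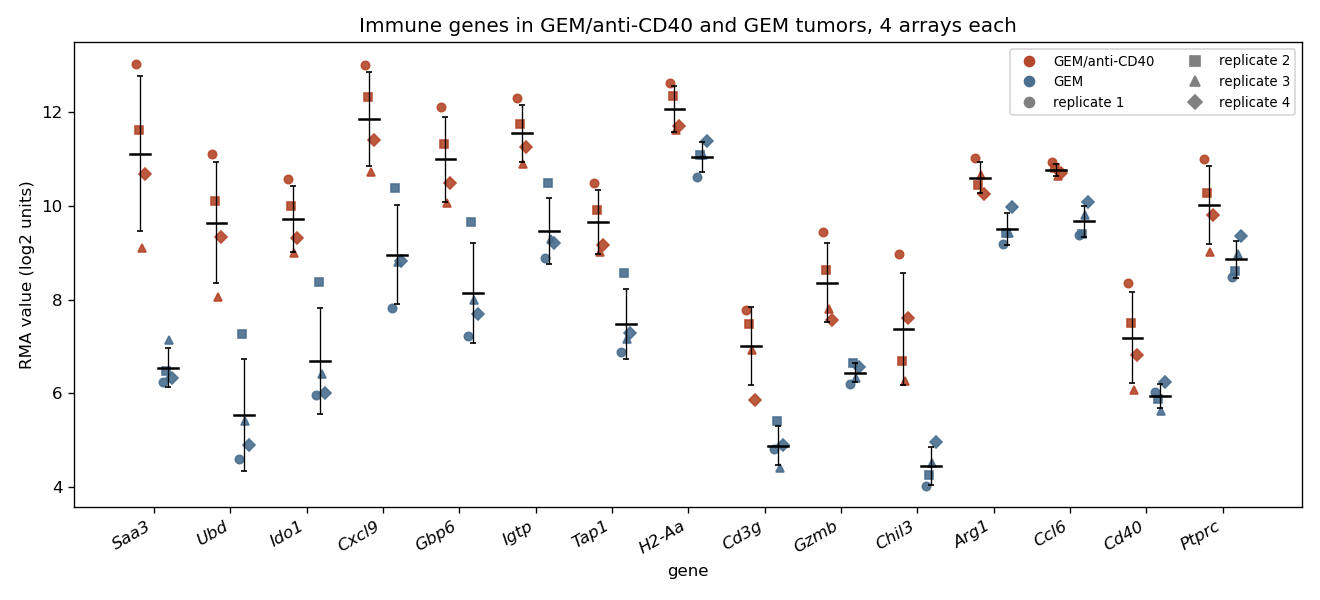
Level (RMA value in log2 units) of 15 immune genes in each of 4 GEM/anti-CD40 and 4 GEM arrays, with the group mean (bar) and SD (whiskers) and a symbol for each replicate number. The groups do not overlap for 13 of the genes, while Cd40 and Ptprc overlap, with GEM/anti-CD40 replicate 3 lowest in both.

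The interferon-inducible GTPases, which attack the vacuoles of intracellular parasites, had the largest median of all lists. All 13 measured members were above 0, with a median change of 1.95, and 11 of 13 had groups that did not overlap, against 3.69% of named genes. Igtp, an immunity-related GTPase, measured 12.30, 11.76, 10.89 and 11.25 in GEM/anti-CD40 tumors, against 8.89, 10.48, 9.30 and 9.20 in GEM tumors. This is a 4.24-fold difference (log2 2.08 ± 0.38), and GEM replicate 2 alone came within 1 log2 unit of the lowest treated array. Gbp6, a guanylate-binding protein, had 12.11, 11.32, 10.06 and 10.48 in GEM/anti-CD40 tumors and 7.23, 9.66, 7.99 and 7.69 in GEM tumors (7.21-fold). Iigp1 differed by 2.80 ± 0.56, Irgm2 by 1.63 ± 0.30 and Gbp2 by 2.02 ± 0.42, each without overlap.

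Promoter sequences of Igtp, Gbp2, Saa3 and the interferon-stimulated gene Ifit1 are printed to show interferon-response letters, since the factors that interferons activate bind such letters. These 4 were picked because they hold a match, and the windows of Ubd, Cxcl9, Tap1 and Psmb9 held none. The windows run from 250 bases before to 50 after the annotated start (RefSeq, build GRCm38.p6), and capitals mark GAAA, 2 bases of any kind and GAAA, searched on both strands, the core of the interferon-stimulated response element (ISRE), or TTCNNNGAA, the core of a gamma-activated site, (GAS), which reads alike on both strands, and matches of the 2 do not overlap in these windows.
Igtp (chr11:58199306-58199605, plus strand): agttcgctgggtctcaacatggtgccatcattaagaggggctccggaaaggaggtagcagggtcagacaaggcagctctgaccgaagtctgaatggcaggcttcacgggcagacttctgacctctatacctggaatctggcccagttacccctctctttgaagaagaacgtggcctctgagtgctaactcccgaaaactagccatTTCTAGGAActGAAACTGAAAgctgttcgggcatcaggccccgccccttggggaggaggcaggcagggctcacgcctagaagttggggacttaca
Gbp2 (chr3:142620413-142620712, plus strand): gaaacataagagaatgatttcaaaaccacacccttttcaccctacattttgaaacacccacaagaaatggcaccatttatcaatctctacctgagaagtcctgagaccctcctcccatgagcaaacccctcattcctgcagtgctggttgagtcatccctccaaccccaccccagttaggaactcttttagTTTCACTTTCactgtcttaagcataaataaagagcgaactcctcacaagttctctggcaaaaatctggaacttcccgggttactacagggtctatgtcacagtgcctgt
Ifit1 (chr19:34640639-34640938, plus strand): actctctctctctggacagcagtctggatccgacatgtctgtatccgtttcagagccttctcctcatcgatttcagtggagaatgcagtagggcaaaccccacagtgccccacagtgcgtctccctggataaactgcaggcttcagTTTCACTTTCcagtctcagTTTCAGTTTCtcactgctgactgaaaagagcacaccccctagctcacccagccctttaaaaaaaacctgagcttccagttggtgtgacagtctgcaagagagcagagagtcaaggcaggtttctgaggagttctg
Saa3 (chr7:46715627-46715926, minus strand): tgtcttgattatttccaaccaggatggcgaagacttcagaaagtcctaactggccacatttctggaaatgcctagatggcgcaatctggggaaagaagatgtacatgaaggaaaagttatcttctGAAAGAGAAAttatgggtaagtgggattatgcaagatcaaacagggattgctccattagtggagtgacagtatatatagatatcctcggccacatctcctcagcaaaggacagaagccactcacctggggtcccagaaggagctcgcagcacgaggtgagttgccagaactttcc

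Igtp held both kinds of core close together, Ifit1 held 2 ISRE cores, and Gbp2 and Saa3 held 1 ISRE core each. The ISRE core was found in 7 of the 8 GTPase genes with a promoter in the table and in 11 of 20 type I interferon-stimulated genes, against 3.99% of the 27025 genes of the table. It was in 11.2% of the genes whose arrays did not overlap upward and in 2.25% of those that did not overlap downward. The GAS core was found in 6 of 18 genes of the interferon gamma list, against 9.55% of the table, and in 11.2% and 9.22% of the genes that did not overlap upward and downward. All shares count only genes with a promoter in the table. Among those with a log2 change of 1 or more, the ISRE core was in 18.0% and the GAS core in 16.6%. Over all named genes on the array the shares were 3.63% and 8.57%. These are matches of letters, and no binding was measured.

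Interferon gamma itself and the genes of its pathway had higher means. In the interferon gamma list 22 of 24 genes were above 0, with a median of 1.16, and 15 did not overlap, all upward. Ifng measured 8.39, 6.41, 4.92 and 5.08 in GEM/anti-CD40 tumors, against 3.62, 4.02, 3.83 and 3.74 in GEM tumors (2.40 ± 0.66). It was low in all GEM arrays, and the SD in treated tumors, 1.61, came mostly from replicate 1. Irf1, a transcription factor that interferon gamma induces, was 11.20 ± 0.50 in GEM/anti-CD40 tumors and 10.01 ± 0.35 in GEM tumors (SD, n = 4 each), Nlrc5, the transactivator of MHC class I genes, was 9.02 ± 0.69 in GEM/anti-CD40 tumors and 6.74 ± 0.73 in GEM tumors, and Socs1, a feedback inhibitor of JAK kinases, was 7.34 ± 0.81 in GEM/anti-CD40 tumors and 5.94 ± 0.27 in GEM tumors. None of these 3 overlapped. Cd274, which encodes the checkpoint ligand PD-L1, had 9.79, 8.55, 7.76 and 7.78 in GEM/anti-CD40 tumors, against 6.30, 7.27, 6.75 and 6.52 in GEM tumors (1.76 ± 0.43). Irf1, Socs1 and Ifng were named after their values were seen, as were Gbp2, Cxcl10, Psmb9, B2m, Ciita, Prf1, Foxp3, Ccl5 and the genes marked so below.

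The type I interferon-stimulated genes, many of them antiviral effectors, were above 0 in all 28 measured cases, with a median of 1.28 and 24 genes without overlap. Usp18, a protease that damps interferon receptor signaling, measured 9.75, 8.92, 8.37 and 8.38 in GEM/anti-CD40 tumors, against 7.45, 7.30, 7.05 and 7.11 in GEM tumors. Ifit1, which binds viral RNA, had 9.54, 8.31, 7.32 and 7.92 in GEM/anti-CD40 tumors and 6.36, 6.34, 6.05 and 5.93 in GEM tumors (2.10 ± 0.39). GEM replicate 2, the highest GEM array for Cd274 and the GTPases above, was not the highest for either of these genes. Isg20, an RNA exonuclease, moved less but evenly, at 10.34 ± 0.18 in GEM/anti-CD40 tumors and 9.85 ± 0.10 in GEM tumors.

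Genes of antigen presentation followed. All 14 genes of MHC class I presentation were above 0 (median 1.04) and 11 did not overlap. The peptide transporter gene Tap1 measured 10.49, 9.92, 9.02 and 9.17 in GEM/anti-CD40 tumors and 6.89, 8.56, 7.16 and 7.30 in GEM tumors. Its change was 2.17 in this probe set but 0.68 with its 4 probe sets averaged, and the lowest of them was at -0.05. The immunoproteasome subunits Psmb8 and Psmb9 differed by 2.16 ± 0.42 and 2.00 ± 0.41, and the light chain B2m, already bright, by 0.81 ± 0.17. The other probe set of Psmb8 differed by 0.79. In the MHC class II list 11 of 12 genes were above 0, with a median of 0.88 and 6 without overlap. H2-Aa measured 12.62, 12.34, 11.63 and 11.70 in GEM/anti-CD40 tumors and 10.62, 11.09, 11.08 and 11.38 in GEM tumors, close together between treated replicate 3 and GEM replicate 4. The invariant chain Cd74 and the class II transactivator Ciita differed by 1.18 ± 0.28 and 0.86 ± 0.28.

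T cell and cytotoxic genes were higher in GEM/anti-CD40 tumors. In bulk tissue more cells of a type and more RNA per cell cannot be told apart. In the T cell list 18 of 20 genes were above 0 (median 0.48) and 9 did not overlap, and in the cytotoxic list 16 of 19 (median 0.48) with 10 non-overlapping upward and 1 downward. The median of the T cell list was 0.29 without GEM/anti-CD40 replicate 1. Cd3g, a chain of the T cell receptor complex, measured 7.78, 7.48, 6.92 and 5.87 in GEM/anti-CD40 tumors, against 4.82, 5.42, 4.40 and 4.89 in GEM tumors (2.13 ± 0.38). Here replicate 4 and not replicate 3 was the lowest treated tumor, as it was for Cd3d, Cxcr6, Il7r, Nkg7, Gzmb and Gzma. Gzmb, a protease of cytotoxic granules, had 9.44, 8.64, 7.81 and 7.57 in GEM/anti-CD40 tumors and 6.21, 6.65, 6.34 and 6.57 in GEM tumors (3.79-fold). Gzma measured 8.04, 7.02, 6.18 and 5.69 in GEM/anti-CD40 tumors and 4.75, 4.91, 4.55 and 4.39 in GEM tumors. Prf1, the pore-forming partner of the granzymes, did not share this difference in its brighter probe set, at 5.46 ± 0.10 in GEM/anti-CD40 tumors and 5.66 ± 0.11 in GEM tumors, while its other probe set differed by 0.50.

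NK cell receptor genes were above 0 in 12 of 14 cases, with a lower median of 0.24, or 0.15 without GEM/anti-CD40 replicate 1, and 3 genes without overlap, a count that became 7 without replicate 3 and 5 without replicate 4. Klrd1, the shared CD94 chain of NK receptors, was 7.11 ± 0.65 in GEM/anti-CD40 tumors and 5.91 ± 0.42 in GEM tumors. Among Treg and checkpoint genes 14 of 16 were above 0 (median 0.42, or 0.24 without GEM/anti-CD40 replicate 1) and 5 did not overlap, or 8 without replicate 4, including Pdcd1 (0.80 ± 0.20), Pdcd1lg2 (1.02 ± 0.22) and Tnfrsf9, the costimulatory receptor 4-1BB (0.66 ± 0.15). Foxp3, the factor that defines regulatory T cells, was 4.89 ± 0.10 in GEM/anti-CD40 tumors and 5.06 ± 0.20 in GEM tumors, a difference within the spread. The B cell and immunoglobulin list had 11 of 18 genes above 0 with a median of 0.05, and none of its genes had groups apart.

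Macrophage and other myeloid genes also had higher means. Ptprc, the CD45 antigen of all leukocytes, had 11.01, 10.27, 9.02 and 9.81 in GEM/anti-CD40 tumors, against 8.49, 8.62, 8.98 and 9.37 in GEM tumors, and treated replicate 3 lay inside the GEM range. Its change was 1.16, or 0.64 with its probe sets averaged. All 20 pan-macrophage markers were above 0 (median 0.73) and 6 did not overlap, a count that became 15 without GEM/anti-CD40 replicate 3 and 10 without GEM replicate 4. Lyz2, the lysozyme of macrophages and neutrophils, was 13.01 ± 0.40 in GEM/anti-CD40 tumors and 12.06 ± 0.28 in GEM tumors, and Itgam, the CD11b integrin, was 7.02 ± 0.63 in GEM/anti-CD40 tumors and 5.87 ± 0.21 in GEM tumors. All 18 inflammatory myeloid genes were above 0 (median 1.09), with 11 apart. Acod1, which makes itaconate in activated macrophages, had 10.92, 9.79, 7.84 and 8.33 in GEM/anti-CD40 tumors and 6.54, 6.88, 6.31 and 6.24 in GEM tumors (2.73 ± 0.58), and the cytokine gene Il6 had 8.15, 5.20, 4.81 and 5.79 in GEM/anti-CD40 tumors and 3.64, 3.86, 3.82 and 3.92 in GEM tumors.

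Other myeloid genes differed little between the treated tumors. Ccl6, a chemokine of macrophages and granulocytes and the named gene with the smallest p upward, measured 10.93, 10.82, 10.64 and 10.70 in GEM/anti-CD40 tumors, against 9.39, 9.40, 9.81 and 10.08 in GEM tumors (1.10 ± 0.15). Arg1, the arginase of alternatively activated macrophages, had 11.03, 10.44, 10.67 and 10.26 in GEM/anti-CD40 tumors and 9.18, 9.42, 9.43 and 9.98 in GEM tumors. Pf4, the chemokine CXCL4, had 9.32, 9.43, 9.49 and 9.27 in GEM/anti-CD40 tumors and 8.44, 8.24, 8.83 and 8.68 in GEM tumors. The treated tumors thus lay close together for these 3 genes, unlike for Ubd and Saa3. Msr1, a scavenger receptor, and Ccl9 differed by 1.22 ± 0.18 and 1.05 ± 0.16. Chil3, the chitinase-like protein Ym1 of activated mouse macrophages, was more uneven, at 8.97, 6.70, 6.26 and 7.60 in GEM/anti-CD40 tumors and 4.03, 4.25, 4.52 and 4.97 in GEM tumors (7.67-fold). The list of alternatively activated macrophage genes, which holds Arg1 and Chil3, moved less as a whole. Of its 15 genes 12 were above 0 and 3 below, and 4 did not overlap. Its median was 0.37, or 0.125 without GEM/anti-CD40 replicate 4.

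Among chemokines 24 of 27 were above 0 (median 0.97) and 13 did not overlap. Cxcl9 and Cxcl10, which attract activated T cells through CXCR3, differed by 2.90 ± 0.60 and 2.40 ± 0.52. Ccl5 had 11.87, 10.13, 9.22 and 8.84 in GEM/anti-CD40 tumors, against 7.56, 7.35, 7.31 and 7.58 in GEM tumors, and Ccl22, a chemokine of mature dendritic cells, 8.73, 8.74, 7.19 and 8.35 in GEM/anti-CD40 tumors and 7.06, 6.29, 6.96 and 7.11 in GEM tumors. The chemokine receptors moved less (13 of 17 above 0, median 0.23, or 0.10 without GEM/anti-CD40 replicate 1). The granulocytic list had 14 of 15 genes above 0 (median 0.57) and 4 apart, or 7 without GEM/anti-CD40 replicate 4 or GEM replicate 4, among them S100a9, a calprotectin subunit, at 10.36 ± 0.46 in GEM/anti-CD40 tumors and 9.09 ± 0.51 in GEM tumors, and Camp, an antimicrobial peptide, at 5.22 ± 0.16 in GEM/anti-CD40 tumors and 4.65 ± 0.09 in GEM tumors. Of 15 complement genes 13 were above 0 (median 0.73), and 4 were apart upward, or 7 without GEM/anti-CD40 replicate 3 and 8 without replicate 4. Serping1, the C1 inhibitor, measured 11.30, 10.36, 9.25 and 10.14 in GEM/anti-CD40 tumors and 7.33, 8.11, 8.13 and 8.04 in GEM tumors, while Cfi, the complement factor I protease, ran the other way at 12.23 ± 0.22 in GEM/anti-CD40 tumors and 12.62 ± 0.07 in GEM tumors.

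**Figure D2:**
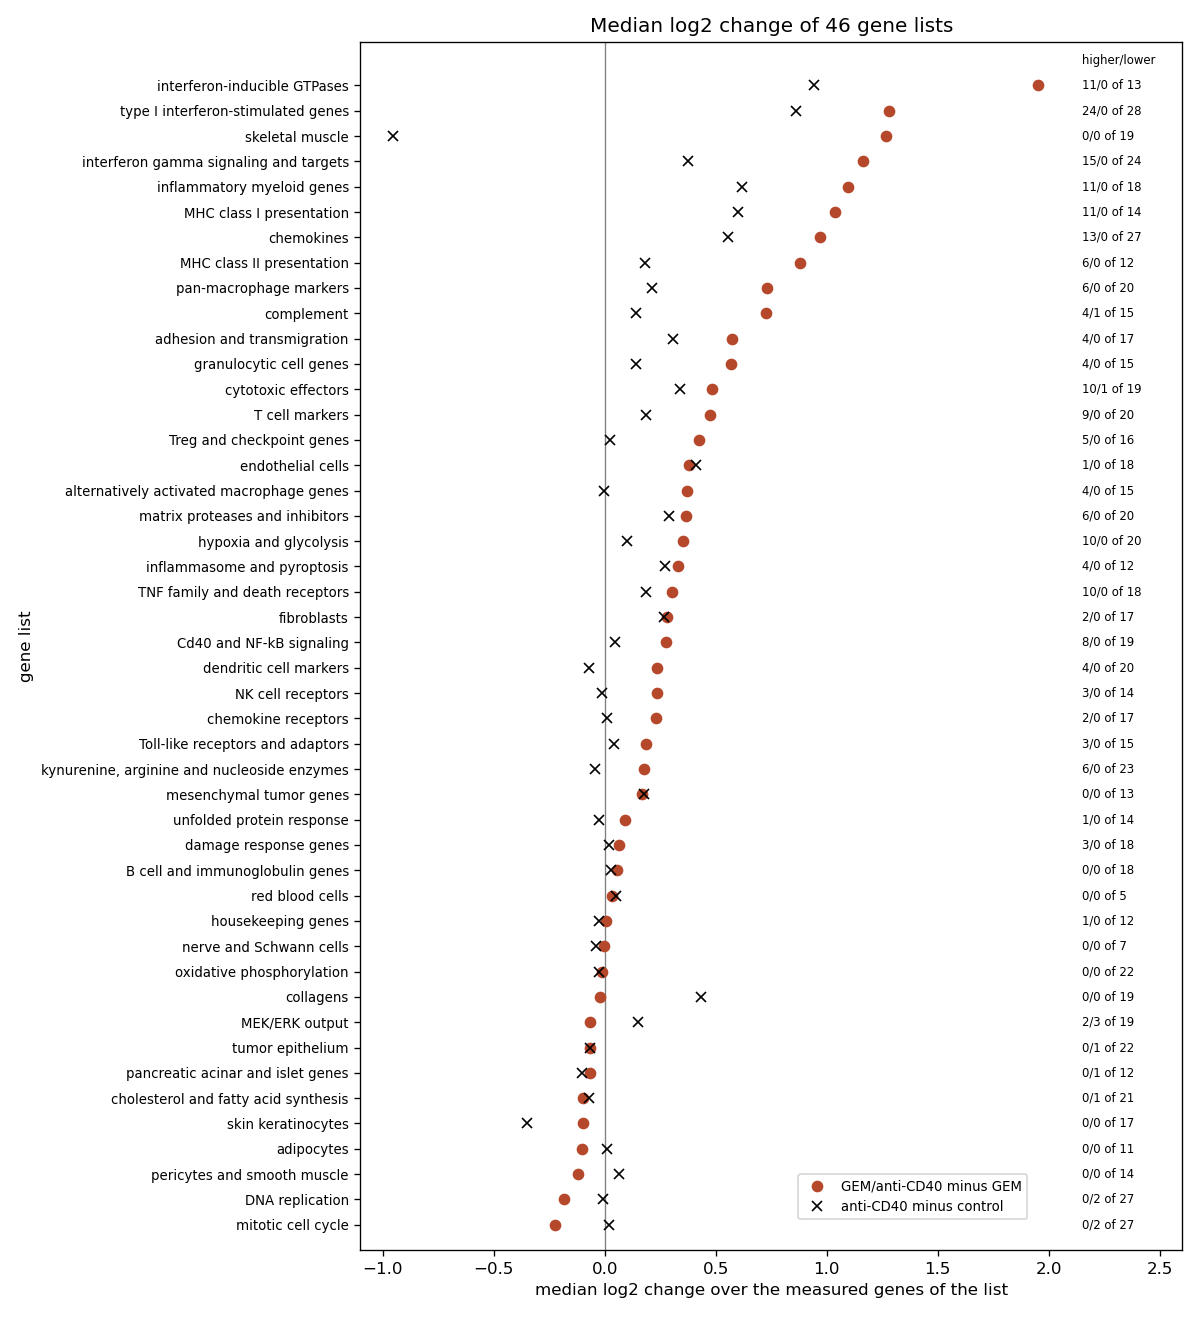
Median log2 change of each of 46 gene lists for GEM/anti-CD40 minus GEM (circles) and anti-CD40 minus control (crosses), with the number of genes whose GEM/anti-CD40 and GEM arrays do not overlap at the right (higher/lower of those measured). The interferon-inducible GTPases reach 1.95 with GEM and 0.94 without, and the mitotic list is lowest at -0.22 with GEM.

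The target of the Ab had the largest change of its list, and its signaling genes gave smaller differences. Cd40 had 8.36, 7.50, 6.08 and 6.82 in GEM/anti-CD40 tumors, against 6.04, 5.88, 5.62 and 6.24 in GEM tumors (1.25 ± 0.41), and treated replicate 3 lay inside the GEM range. In the list of Cd40 and NF-kB genes 17 of 19 were above 0 with a median of 0.28, and 8 did not overlap. Nfkb2, the p100 precursor of the noncanonical arm, measured 8.73, 8.59, 8.44 and 8.61 in GEM/anti-CD40 tumors and 8.14, 8.29, 8.20 and 8.13 in GEM tumors. This difference of 0.40 ± 0.07 was small beside those above, and it was 0.22 with both probe sets of the gene averaged, the other being near 0. Relb, its partner, and Nfkbie, an inhibitor of NF-kB, differed by 0.42 ± 0.10 and 0.77 ± 0.19. Of 20 dendritic cell markers 12 were above 0 (median 0.24, or 0.13 without GEM/anti-CD40 replicate 1), and the cytokine gene Il12b, which CD40 signals induce in dendritic cells, had 5.75, 4.82, 3.73 and 4.16 in GEM/anti-CD40 tumors against 3.43, 3.36, 3.35 and 3.57 in GEM tumors (1.19, or 0.75 with its probe sets averaged). All 18 genes of the TNF family and death receptor list were above 0 (median 0.30, 10 apart), with Fas at 6.92 ± 0.43 in GEM/anti-CD40 tumors and 6.05 ± 0.17 in GEM tumors.

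Hypoxia and glycolysis genes were higher without the gradation of the immune genes. All 20 were above 0 (median 0.35), 10 did not overlap, and the list mean was 10.95, 10.82, 10.97 and 10.97 in GEM/anti-CD40 tumors, against 10.46, 10.70, 10.55 and 10.40 in GEM tumors. Treated replicate 3, lowest for the interferon lists, was level with the highest here. Adm, the vasodilator adrenomedullin, measured 8.68, 8.38, 8.94 and 8.90 in GEM/anti-CD40 tumors and 7.21, 8.01, 7.74 and 7.62 in GEM tumors (2.11-fold). The glucose transporter gene Slc2a1, hexokinase Hk2 and phosphofructokinase Pfkp differed by 0.57 ± 0.12, 0.52 ± 0.10 and 0.59 ± 0.11. Angptl4, a lipase inhibitor induced by hypoxia and fasting, was 10.31 ± 0.11 in GEM/anti-CD40 tumors and 9.67 ± 0.15 in GEM tumors, with its other probe set at 0.01. Cdkn1a, the cell cycle inhibitor p21, had 10.17, 9.63, 9.39 and 9.57 in GEM/anti-CD40 tumors, against 8.64, 8.76, 8.85 and 8.81 in GEM tumors (0.93 ± 0.15). It was highest in treated replicate 1 and lowest in replicate 3, as many immune genes were. In the damage response list, which holds Cdkn1a, 14 of 18 genes were above 0 and 4 below. The median was 0.065, and 3 did not overlap.

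**Figure D3:**
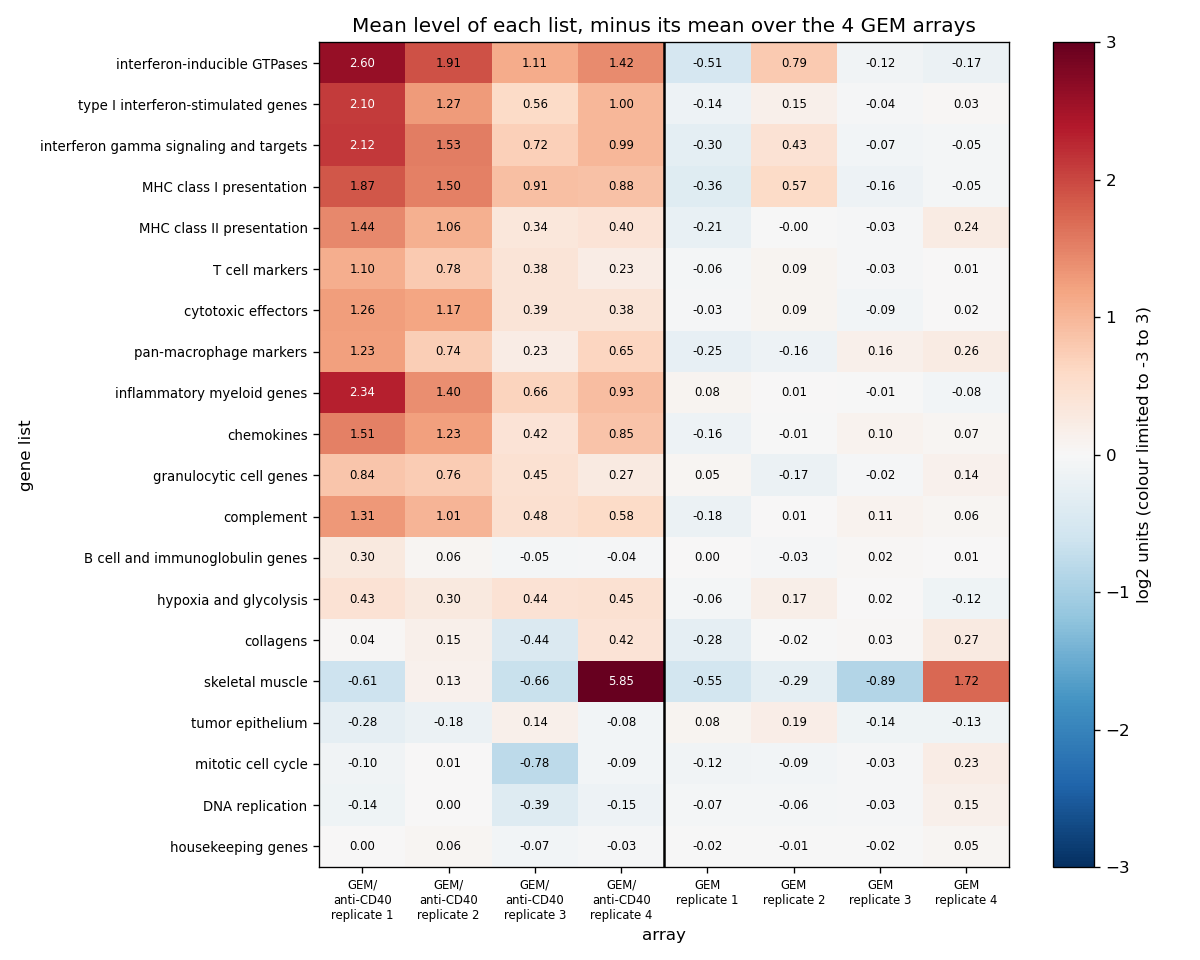
Mean level of 20 gene lists in each of the 4 GEM/anti-CD40 and 4 GEM arrays, minus the mean of the 4 GEM arrays (log2 units, colour and number). Interferon and immune lists run highest in GEM/anti-CD40 replicate 1, hypoxia and glycolysis is level across the 4 treated arrays, skeletal muscle stands out in GEM/anti-CD40 replicate 4 and the mitotic list is lowest in replicate 3.

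In the MEK/ERK list 9 of 19 genes were above 0 and the median was -0.06. Map2k1, the kinase MEK1, was 11.49, 11.49, 11.45 and 11.52 in GEM/anti-CD40 tumors and 11.25, 11.26, 11.12 and 11.11 in GEM tumors, whereas Phlda1, an ERK target, was 10.97, 11.09, 11.07 and 11.27 in GEM/anti-CD40 tumors and 11.44, 11.44, 11.32 and 11.48 in GEM tumors. The list thus held genes apart in both directions, 2 upward and 3 downward, and without GEM replicate 2 its median was 0.14 with 4 apart upward.

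Matrix and stromal genes were mixed. Matrix proteases and their inhibitors were above 0 in 18 of 20 cases (median 0.37, 6 apart). Mmp13, a collagenase, measured 9.91, 9.52, 9.76 and 10.22 in GEM/anti-CD40 tumors, against 8.96, 8.83, 9.09 and 8.91 in GEM tumors, and the macrophage elastase Mmp12 differed by 1.10 ± 0.22. Ltbp2, a microfibril protein, differed by 1.35 ± 0.20 and Pdpn, podoplanin of fibroblasts and lymphatic vessels, by 1.12 ± 0.22. The 19 collagens had a median of -0.02 with none apart, but the direction turned on single arrays, at 0.18 with 2 apart upward without GEM/anti-CD40 replicate 3, 0.11 without GEM replicate 4 and -0.08 without GEM/anti-CD40 replicate 4. Fibroblast genes were above 0 in 13 of 17 cases (median 0.28, or 0.11 without GEM replicate 2), with 2 apart upward and 0 downward. Lum, the proteoglycan lumican, had the lowest change of that list. It was at 8.39 ± 0.51 in GEM/anti-CD40 tumors and 9.20 ± 0.44 in GEM tumors, and its groups overlapped. Endothelial genes were above 0 in 16 of 18 cases (median 0.38, or 0.22 without GEM/anti-CD40 replicate 4) with 1 apart, or 8 without replicate 3. Their list mean was highest, within each group, in the array with most muscle RNA, GEM/anti-CD40 replicate 4 at 8.01 and GEM replicate 4 at 7.44 (7.01 to 7.39 in the other GEM arrays), and the part of muscle tissue in the endothelial values was not tested. Skeletal muscle genes had a median of 1.27 with all 19 above 0 and none apart, and a median of -0.36 without GEM/anti-CD40 replicate 4.

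Lower genes were fewer at large size. Ptn, the growth factor pleiotrophin, had the lowest change of all named genes, at 4.49, 5.98, 5.41 and 6.23 in GEM/anti-CD40 tumors, against 6.88, 7.30, 7.01 and 7.78 in GEM tumors (3.28-fold lower in GEM/anti-CD40), though 1 of its 3 probe sets was at 0.03. Agr2, a secreted disulfide isomerase of mucous epithelium and of pancreatic tumor cells, had 6.21, 6.67, 6.91 and 6.85 in GEM/anti-CD40 tumors and 7.20, 8.85, 7.90 and 7.51 in GEM tumors (-1.21 ± 0.32). Aqp5, a water channel of secretory epithelium, was 7.16, 6.67, 7.67 and 6.73 in GEM/anti-CD40 tumors and 8.49, 8.02, 7.83 and 8.35 in GEM tumors. Ddc, which makes dopamine and serotonin, was 8.05, 8.25, 8.40 and 7.97 in GEM/anti-CD40 tumors and 9.19, 8.55, 9.25 and 9.68 in GEM tumors, with its other probe set near 0. Ptn, Aqp5 and Ddc were apart from GEM, as was Agr2, and Ptn, Aqp5, Ddc, Krt25 and Tchh were named after their values were seen. In the tumor epithelium list, which holds Agr2, 16 of 22 genes were below 0 and 6 above, with none apart upward. The mucin gene Muc5ac had the highest change of that list, at 0.91, and so went the other way from Agr2. Of the 16 genes at -1 or below, 9 were raised in GEM replicate 4 alone, by more than 3 log2 units over each of the other 7 arrays; they include the hair follicle genes Krt25, at 9.30 in that array, and Tchh, at 8.02.

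The 10 named genes with the smallest p downward differed by less but with little spread. Calr3, a calreticulin paralog, measured 7.96, 7.99, 8.30 and 7.91 in GEM/anti-CD40 tumors, against 9.02, 8.75, 8.96 and 8.72 in GEM tumors. Ckb, the brain-type creatine kinase, had 6.56, 6.66, 6.49 and 6.59 in GEM/anti-CD40 tumors and 7.42, 7.02, 7.48 and 7.57 in GEM tumors. AU021092 had 6.13, 6.25, 6.32 and 6.36 in GEM/anti-CD40 tumors and 6.93, 6.82, 6.78 and 6.79 in GEM tumors. All 10, which also include the cohesin subunit Rec8, the sterol carrier Stard4, the oxysterol hydroxylase Cyp39a1, the intestinal transcription factor Cdx2, the annealing helicase Zranb3, the receptor Fgfr4 and the secreted protease-like Prss35, were lower in every GEM/anti-CD40 array than in every GEM array, by 0.29 to 0.82. With all probe sets of a gene averaged, the change was -0.15 for Zranb3 and -0.36 for Fgfr4, against -0.29 and -0.70 in the probe sets used. Cela1, an elastase of acinar cells, was 9.10 ± 0.42 in GEM/anti-CD40 tumors and 9.79 ± 0.15 in GEM tumors.

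**Figure D4:**
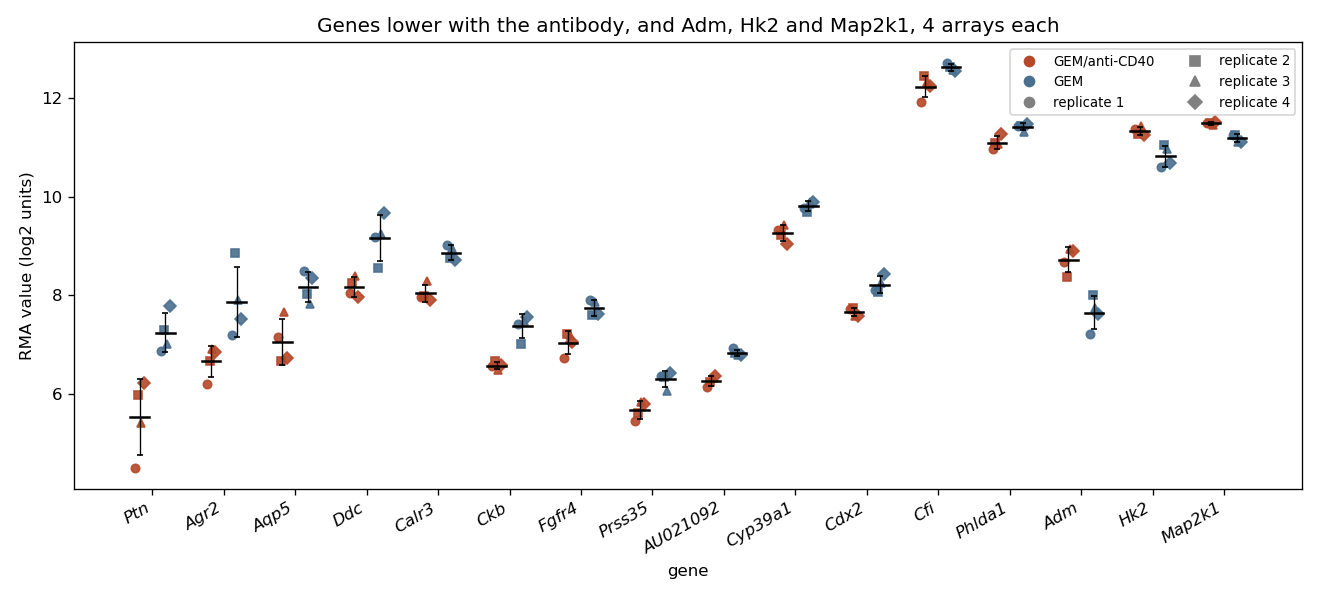
Level (RMA value in log2 units) of 13 genes lower in GEM/anti-CD40 tumors and of Adm, Hk2 and Map2k1, which were higher, in 4 GEM/anti-CD40 and 4 GEM arrays, with group means (bars) and SDs (whiskers). The groups do not overlap for any of the 16 genes, and Ptn is lowest in GEM/anti-CD40 replicate 1 at 4.49.

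Proliferation genes were slightly lower, and this rested largely on 1 tumor. All 27 mitotic genes were below 0 with a median of -0.22, and 2 did not overlap. All 27 were lowest in GEM/anti-CD40 replicate 3, where the list mean was 8.56 against 9.24, 9.35 and 9.25 in treated replicates 1, 2 and 4 and 9.22, 9.25, 9.31 and 9.57 in GEM tumors, and the median was -0.05 without that replicate and -0.13 without GEM replicate 4. DNA replication genes were below 0 in 25 of 27 cases (median -0.18, or -0.11 without replicate 3), with 2 genes apart, and Mcm3, a helicase subunit, was 9.54 ± 0.17 in GEM/anti-CD40 tumors and 9.91 ± 0.13 in GEM tumors. Cholesterol and fatty acid synthesis genes had 1 of 21 above 0 and a median of -0.10, with Elovl6, a fatty acid elongase, at -0.43 ± 0.13. Lists of tumor epithelium (median -0.06), oxidative phosphorylation (-0.01) and housekeeping genes (0.01) lay close to the median of all named genes, although that of tumor epithelium was -0.17 with 3 genes apart downward without GEM/anti-CD40 replicate 3 and -0.02 without replicate 1.

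Without GEM fewer genes had groups apart. Between anti-CD40 and control tumors limma called 0 of 45037 probe sets in either direction, with 2739 at an unadjusted p under 0.05 and a smallest adjusted p of 0.280, and 302 named genes (1.66%) did not overlap upward and 319 (1.75%) downward. These 8 arrays are not among those of the GEM comparison. Of the 672 genes apart upward with GEM, 547 (81.4%) were also above 0 without it, against 43.3% of all named genes, and 73 were apart in both, which is 10.9% of the first list and 24.2% of the second. Of the 629 genes apart downward with GEM, 435 (69.2%) were also below 0 without it, against 55.7% of all named genes. Downward, 23 genes were shared, 3.66% of the 629 with GEM and 7.21% of the 319 without. The median of the GTPase list was 1.95 with GEM and 0.94 without, that of type I interferon-stimulated genes 1.28 and 0.86, that of MHC class II genes 0.88 and 0.18, and that of pan-macrophage markers 0.73 and 0.21. The control arrays stood apart from each other in the interferon and MHC lists. The GTPase mean was 9.50, 9.59, 9.36 and 9.89 in anti-CD40 tumors, against 9.41, 7.73, 8.06 and 9.70 in control tumors, so control replicates 1 and 4 were level with the anti-CD40 arrays and replicates 2 and 3 were below them. The MHC class II mean was 8.70, 8.83, 8.51 and 9.28 in anti-CD40 tumors, against 9.09, 8.37, 8.27 and 9.15 in control tumors, with the same control arrays high. The part of this spread in the smaller medians without GEM was not tested.

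The difference between the 2 Ab changes was tested in all 16 arrays. limma called 0 probe sets, with 2359 at an unadjusted p under 0.05 and a smallest adjusted p of 0.890, and among named genes 512 (2.81%) were higher and 419 (2.3%) lower at that unadjusted level, so no gene was shown to respond differently with GEM. For Saa3 the Ab change was 4.57 with GEM and 2.34 without, and for Ubd 4.10 and 1.85. Arg1 (1.10 and 0.98), Angptl4 (0.64 and 0.65) and Ccl6 (1.10 and 0.78) had changes close to each other. The NF-kB genes Nfkb2, Relb and Nfkbie were at 0.40, 0.42 and 0.77 with GEM, against 0.01, 0.04 and 0.01 without it, where the value of Nfkb2 with GEM rests on 1 of its 2 probe sets. In limma's test of the difference, 5 of 19 genes of that list had an unadjusted p under 0.05 for a larger change with GEM. This was not particular to that list: the count was 5 of 15 for alternatively activated macrophage genes. It was 4 of 15 for granulocytic genes and for Toll-like receptors and adaptors, and 4 of 16 for Treg and checkpoint genes. Cdkn1a was at 0.93 with GEM and 0.23 without, and Agr2 at -1.21 and 0.01.

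**Figure D5:**
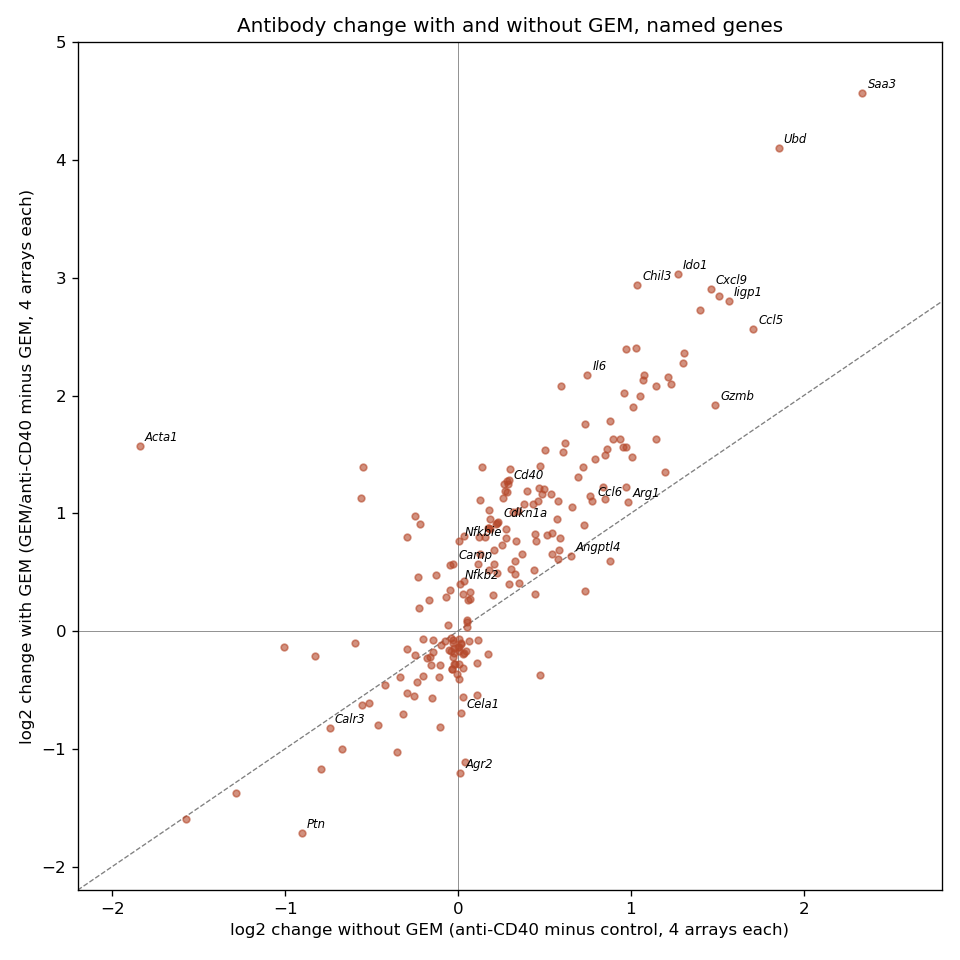
Log2 change of named genes for GEM/anti-CD40 minus GEM (vertical) against anti-CD40 minus control (horizontal), each point a gene, each axis from 4 arrays against 4; the dashed line marks equal changes. Most points lie above the line, but the genes were chosen from the comparison on the vertical axis, which favors that side.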

How the data were processed

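Each of the 16 arrays is 1 tumor piece. The deposited values are log2 values on the scale of RMA, by which the authors corrected background, normalized between arrays and summarized probes per probe set. Neither the software version nor which arrays were normalized as a set is stated in the sources used here. Of 45101 probe sets, 64 controls of the array were dropped. A single gene symbol came with 34945 probe sets, several with 932, and 9160 are not named here. Of those with 1 symbol 34741 matched the RefSeq gene table. For the 9010 genes with more than 1 probe set, the probe set with the greatest average across all 16 arrays was taken.

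Groups were compared on their own 8 arrays with limma 3.58.1 in R 4.3.3 (lmFit and eBayes, no covariate, two-sided, Benjamini-Hochberg over 45037 probe sets, threshold 0.05), and the difference of the Ab changes on all 16. SEs are limma's moderated ones, and p-values set each difference against the spread between arrays of a group. In the GEM group, replicates 3 and 4 carry the same animal number, so part of that spread may lie within 1 mouse. The test was checked on simulated arrays. Genes were named by rule: the 10 smallest p in each direction, since none passed the threshold, up to 4 members with the smallest p of each of 46 lists, Cd40 and Ptprc. Of the genes given with values, 19 fell outside the rule and were chosen after their values were seen. Of 898 list entries 94 had no measured named gene. The members and lists were chosen with earlier results of these data known. Promoters come from RefSeq (GRCm38.p6). No file gives a depth, and 4 arrays per group limit the precision. Alternatives covered the samples in the fit, the filter on dim probe sets, the variance prior, array weights, scaling, the choice of probe sets, a replicate block, GEM replicates 3 and 4 as 1 mouse, and leaving out each array.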

Additional observations from a re-analysis of the deposited data

Results flagged for a closer look

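In groups of 4 arrays, the highest or lowest array was marked where its gap to the next, as a share of the range, exceeded Dixon's critical value. Of 244 such groups over the genes given with values 7 were marked, and of 92 groups over list means 6, where chance marks about 1 in 20. The values of Ifng, Il6 and Acod1, widely spread in GEM/anti-CD40 tumors, were not among them.

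Il18bp, an interferon-induced binding protein of interleukin-18, was at 6.51 in GEM replicate 2 and 5.98 to 6.06 in the other GEM arrays. Serping1 was at 7.33 in GEM replicate 1 and 8.04 to 8.13 in the others. B4galnt2, a glycosyltransferase named after its values were seen, was at 6.99 in GEM replicate 2 and 7.83 to 7.96 in the others. In GEM replicate 4, the hair follicle genes Krt25 and Tchh were at 9.30 and 8.02, against 3.07 to 3.20 and 2.76 to 2.86 in the other GEM arrays.

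Among GEM/anti-CD40 arrays, the mitotic kinase gene Nek2 was at 8.03 in replicate 3 and 8.61 to 8.70 in the others, and the mitotic list mean was at 8.56 there and 9.24 to 9.35 in the others. Gpnmb, a glycoprotein of macrophages and melanocytes named after its values were seen, was at 8.10 in replicate 4 and 9.0 to 9.07 in the others, and its other probe set differed between the groups by 0.11, against 1.17 in the one used. In that array the list means of skeletal muscle (11.73, against 5.22 to 6.01) and of pericytes and smooth muscle (7.79, against 7.05 to 7.12) were the highest. Replicate 2 had the lowest mean for hypoxia and glycolysis (10.82, against 10.95 to 10.97) and the highest for cholesterol and fatty acid synthesis (9.87, against 9.75 to 9.77). In GEM replicate 1 the mean of pancreatic acinar and islet genes was 5.62, against 5.43 to 5.45 in the other GEM arrays.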

How the results depend on the processing

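The counts of 0 probe sets called higher and lower held under each other filter, variance prior, array weighting, scaling and choice of probe sets and in the fit of all 16 arrays. Leaving out 1 array gave 0 to 1 higher and 0 to 1 lower: 1 higher without GEM/anti-CD40 replicate 3 (a second probe set of Sod3, extracellular superoxide dismutase, named after its values were seen), 1 higher without GEM/anti-CD40 replicate 4 (Gpnmb, adjusted p = 0.0234) and 1 lower without GEM replicate 2 (Ckb, adjusted p = 0.0492). For anti-CD40 against control it gave 0 to 2, with 2 called without control replicate 1 and 2 without anti-CD40 replicate 2. The difference of the Ab changes stayed at 0. The fit of all 16 arrays brought the smallest adjusted p to 0.0610 for GEM/anti-CD40 against GEM. Over the genes given, 2176 of 2180 values under alternatives kept sign and side of the threshold; Prf1 turned to 0.15 with all probe sets averaged and Acta1, skeletal muscle actin, ran from -0.05 without GEM/anti-CD40 replicate 4 to 2.47 without GEM replicate 4. The other 2, Ckb and Gpnmb, passed the threshold as given above. Of 828 list medians under alternatives 22 moved beyond the spread between replicates, among them NK cell receptors (0.53 with dim probe sets left out) and MEK/ERK genes (0.14 without GEM replicate 2). Averaging GEM replicates 3 and 4 as 1 mouse also gave 0 calls. An added criterion of 1 log2 unit can only remove calls, so its count of 0 was fixed in advance.

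Same-numbered GEM/anti-CD40 and GEM arrays had deviations correlated at -0.17, -0.05, -0.01 and 0.27, and 2 of 8 arrays correlated best with their own number. These values showed no pairing by number, though so few of them cannot settle whether the samples were paired. The replicate block gave 0 called, and at an unadjusted p under 0.05 it had 2085 probe sets above and 2573 below GEM. With 4 arrays a group and an uneven treated group, even Saa3, at a log2 change of 4.57, was not called. The absence of calls therefore does not show that genes were unchanged.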
